A study of Mus musculus with 5 samples.

Results

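GARP, the protein of Lrrc32, and the genes of latent TGF-beta were examined in CD31-positive cells of mouse hearts after myocardial infarction. The 10 genes were Lrrc32, the ligand genes Tgfb1, Tgfb2 and Tgfb3, the receptor genes Tgfbr1, Tgfbr2 and Tgfbr3, and the latent TGF-beta binding protein genes Ltbp1, Ltbp3 and Ltbp4, out of 17638 genes in the table. They were taken by symbol. Lrrc32 was selected on its low counts in both Tbx1cko libraries, so its difference between the groups is given as a description without a test. The other 9 were joined to it by pathway, with results of these libraries already known. All 10 were found, and all 10 passed the filter of a mean normalised count of at least 10, which 14339 genes passed.

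Polyadenylated RNA was sequenced from 2 Tbx1cko and 3 control libraries. Tbx1cko is a conditional knockout of Tbx1, a T-box transcription factor gene, that the series calls endothelial. Neither the Cre driver nor the deleted exons nor the control alleles are stated in the labels. All the animals, C57BL/6 in background and aged 2 months, had an infarct 5 days before the cells were taken. CD31, or Pecam1, marks endothelial cells but is also carried by platelets and some leukocytes. Whether each library stands for a different animal is not stated, and every interval and p-value below measures only the spread between these libraries, which may be technical.

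TGF-beta is secreted in a latent form, with the growth factor held inside its own propeptide. That propeptide is bonded either to a latent TGF-beta binding protein, which fixes the complex to the extracellular matrix, or to GARP, which holds it on the surface of regulatory T cells, platelets and endothelial cells. Integrins or proteases then release the ligand, which binds TGFBR2 and TGFBR1 and signals through SMAD2 and SMAD3.

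The deposited values are read counts divided by 1 size factor per library, called normalised read counts here. The libraries held 17769729 and 16061666 reads in Tbx1cko replicates 1 and 2, and between 14689782 and 18617284 in the controls. Tbx1 had 18.3 and 17.3 normalised reads in the Tbx1cko libraries, against 64.4, 72.7 and 69.6 in control replicates 1 to 3, in the direction of the labels. Control replicate 2 stood apart: across genes, its log2 values correlated with those of the other libraries at r between 0.859 and 0.889, while r was 0.980 to 0.988 among the remaining 4. Its deviation from them had a Spearman rho of 0.801 with transcript GC content over 13747 genes, which share their libraries and are not independent replicates. The difference between the groups, Tbx1cko minus control, had a rho of -0.71 with GC content over the same genes, and -0.31 without that library. Results are therefore also given without it and after a GC correction.

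Lrrc32 is a protein-coding gene of the plus strand, at chromosome 7 from 98489283 to 98502181 (build GRCm38). It had 2627 and 2612 normalised reads in Tbx1cko replicates 1 and 2, and 5100.4, 6728 and 4270.0 in control replicates 1 to 3. The Tbx1cko libraries lay almost on top of each other and well under the lowest control, while the controls were spread more widely. The means were 2619 ± 10.5 (SD, n = 2) in Tbx1cko and 5366 ± 1251 (SD, n = 3) in controls, a ratio of 0.488. At least 2563 reads stood behind each library's value, so counting error was small beside the spread of the controls. The fitted difference, Tbx1cko minus control on log2(normalised count + 1), was -1.01. It was -0.83 without control replicate 2, -0.66 after GC correction of all 5 libraries, and -0.71 with both.

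**Figure D1:**
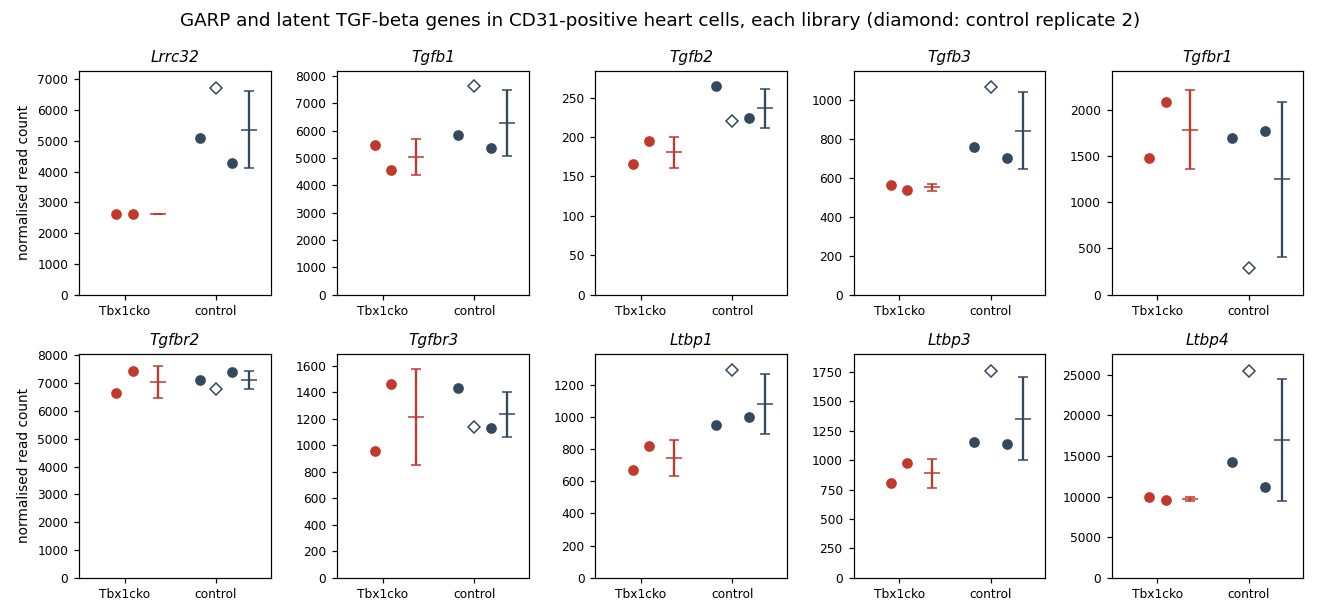
Normalised read count (vertical axes, from 0) of the 10 genes in each Tbx1cko library (red, left) and control library (dark, right), with mean and SD beside the points and control replicate 2 as an open diamond. Lrrc32, Tgfb2, Tgfb3, Ltbp1, Ltbp3 and Ltbp4 had every Tbx1cko point below every control point, and Tgfbr2 stayed between 6643 and 7439 in all libraries.

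Less RNA per cell and fewer cells of a type cannot be told apart in these bulk libraries. The 12 pan-endothelial markers, among them Cdh5 and Kdr, summed to 191813 and 182113 normalised reads in Tbx1cko replicates 1 and 2 and to between 196559 and 268993 in controls, with 10 of 12 lower and none at 0. Set against that sum within each library, Lrrc32 came to 13.7 and 14.3 reads per 1000 marker reads in Tbx1cko replicates 1 and 2, and to 24.6, 25.0 and 21.7 in control replicates 1 to 3. The ratio of the Tbx1cko to the control mean was 0.589 on this scale, and the groups again did not overlap. Control replicate 2, the highest library for Lrrc32 in normalised reads, lay close to control replicate 1 in this ratio.

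GARP is also made by platelets and regulatory T cells. The 11 platelet markers summed to 3915 and 3362 normalised reads in Tbx1cko and to between 1490.3 and 2549 in controls, with 8 of the 10 tested markers higher in mean log2 value. Most of that sum was Pf4, the gene of platelet factor 4, at 2923 and 2726 in Tbx1cko and 1049, 1625 and 1888 in controls. Pf4 and Ppbp, the genes of a pair of platelet chemokines, were the 2 markers higher without overlap, beside 14.2% of all genes tested. Itga2b, the platelet integrin chain, overlapped, at 242 and 136 in Tbx1cko and 171, 201 and 171 in controls, and Gp1ba, a platelet adhesion receptor gene, was lower without overlap, at 18.3 and 19.4 in Tbx1cko and 21.5, 24.8 and 31.1 in controls. The 9 T cell and regulatory T cell markers summed to 290 and 355 in Tbx1cko and 227 to 382 in controls, with Foxp3, the defining factor of regulatory T cells, at 0.915 and 7.13 in Tbx1cko and 4.52, 7.36 and 12.2 in controls. The 13 markers of pericytes and smooth muscle, cells that surround vessels, summed to 60736 and 57328 in Tbx1cko and to between 69401 and 77749.5 in controls, with 12 of 13 lower. The 8 lymphatic endothelial markers summed to 9716 and 8299 in Tbx1cko and to between 11446 and 14892 in controls, with 8 of 8 lower. Of these 8, 4 were lower without overlap, beside 13.9% of all genes tested. Pdpn and Lyve1 overlapped, with log2 differences of only -0.0015 and -0.036. The 10 macrophage markers summed to 98939 and 100483 in Tbx1cko and to between 64062 and 103851 in controls. Of these 10, 9 were higher, and 4 were higher without overlap, beside 14.2% of all genes tested. Without control replicate 2, the log2 differences of Adgre1, Csf1r, Cd14, C1qa and C1qb were -0.06, -0.09, -0.13, -0.08 and -0.0048. Those of Cd68, Lyz2, Itgam, Mrc1 and Ccr2 stayed above 0, at 0.41, 0.25, 0.57, 0.16 and 0.29. No marker of these 5 lists was at 0 in every library. The part of the mural, lymphatic, platelet and macrophage differences in the values of Lrrc32 was not tested.

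By limma across all genes, 0 of 14339 passed an adjusted p of 0.05 (0.0% called), 250 had an unadjusted p under 0.05, edgeR called 0, voom called 0 and DESeq2 called 4 (0.0279% called). Tbx1 itself, at a log2 difference of -1.89, was not called by limma either (adjusted p = 0.762), while DESeq2 called it (adjusted p = 0.0349). Of the 9 genes beside Lrrc32, 0 passed, and 0 had an unadjusted p under 0.05. In sign, 8 of the 9 were lower in Tbx1cko, beside 47.6% of all genes tested, and their median log2 difference was -0.39, beside 0.03 over all genes. For 5 of the 9, Tgfb2, Tgfb3, Ltbp1, Ltbp3 and Ltbp4, both Tbx1cko libraries lay below all controls, which held for 13.9% of all genes, and 0 of 9 were higher without overlap, against 14.2% of all genes. The same 5 were lower without overlap after GC correction (13.0% of genes) and, without control replicate 2, against 17.8% of genes.

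Among the ligand genes, Tgfb3 and Tgfb2 were lower without overlap and Tgfb1, the main isoform here, overlapped. Tgfb1 encodes the isoform of immune and endothelial cells that GARP is best known to hold, and lies on chromosome 7 from 25687002 to 25705077, plus strand. It had 5487 and 4558 normalised reads in Tbx1cko replicates 1 and 2, and 5824, 7634 and 5351 in control replicates 1 to 3. Tbx1cko replicate 1 lay between 2 controls. The log2 difference was -0.31 (95% interval -0.88 to 0.26, limma adjusted p = 0.762), and it was -0.16 without control replicate 2.

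Tgfb3, on chromosome 12 from 86056745 to 86079041, minus strand, encodes an isoform known from palate closure and mesenchyme. Its normalised reads were 562 and 538 in Tbx1cko, and 756, 1067 and 701 in control replicates 1 to 3. Both Tbx1cko libraries were below the lowest control by more than they differed from each other. The means were 550.3 ± 17.3 (SD, n = 2) in Tbx1cko and 841 ± 197 (SD, n = 3) in controls, with a log2 difference of -0.59 (95% interval -1.23 to 0.05, limma adjusted p = 0.762). Without control replicate 2 it was -0.40.

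Tgfb2, on chromosome 1 from 186622792 to 186705989, minus strand, encodes the isoform of heart valve formation in the embryo. It was the scarcest of the 10 genes, with 166 and 195 normalised reads in Tbx1cko and 266, 221 and 224 in control replicates 1 to 3. The gap between the highest Tbx1cko and the lowest control library was narrower than the spread within either group. Unlike the other ligands, its difference was larger after GC correction, at -0.59, than before it, at -0.39 (95% interval -0.97 to 0.20, limma adjusted p = 0.762). Per exon length, Tgfb1 made up 84.8% and 82.4% of the sum of the 3 ligands in Tbx1cko and 81.1% to 81.2% in controls. Tgfb3 made up 13.0% and 14.5% in Tbx1cko and 15.7% to 16.9% in controls, and Tgfb2 2.24% and 3.06% in Tbx1cko and 2.04% to 3.22% in controls. The share of Tgfb1 was thus higher and that of Tgfb3 lower in both Tbx1cko libraries than in any control, by a few percentage points, and that of Tgfb2 overlapped.

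The receptor genes overlapped between the groups. Tgfbr2, the type II receptor that binds the ligand first, lies on chromosome 9 from 116084293 to 116175360, minus strand. It had 6643 and 7439 normalised reads in Tbx1cko and 7125, 6771 and 7405 in controls, so that its highest library was only 1.12 times its lowest, control replicate 2 included. The log2 difference was -0.01 (95% interval -0.42 to 0.40, limma adjusted p = 0.976). Within each library, Lrrc32 came to 395 and 351 reads per 1000 reads of Tgfbr2 in Tbx1cko, and to 716, 994 and 577 in controls.

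Tgfbr3, or betaglycan, the co-receptor that presents TGF-beta2, lies on chromosome 5 from 107106570 to 107289629, minus strand. It had 955 and 1466 normalised reads in Tbx1cko and 1430.5, 1139.7 and 1130.1 in controls. The Tbx1cko libraries enclosed all the controls, so the log2 difference of -0.05 (95% interval -0.72 to 0.62, limma adjusted p = 0.941) had no stable sign. It was 0.26 without Tbx1cko replicate 1 and -0.36 without Tbx1cko replicate 2, and each of these fits assumes that the lone Tbx1cko library varies like the controls.

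Tgfbr1, or ALK5, the type I receptor kinase that phosphorylates SMADs, lies on chromosome 4 from 47353222 to 47414931, plus strand. It had 1482 and 2086 normalised reads in Tbx1cko, and 1693, 283 and 1774 in control replicates 1 to 3. Control replicate 2 held 0.163 times the mean of the other controls, from 308 reads, and was far below all other libraries. The log2 difference of 0.89 (95% interval -1.27 to 3.05, limma adjusted p = 0.762) was 0.02 without that library and 0.12 after GC correction. Tgfbr1 has the lowest transcript GC content of the 10 genes, 41.0%.

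**Figure D2:**
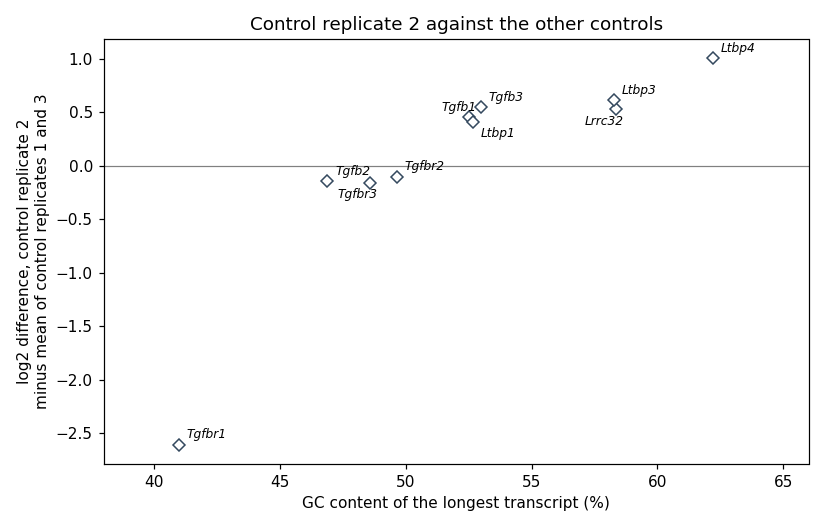
Log2 difference of control replicate 2 from the mean of control replicates 1 and 3 (vertical axis) against the GC percent of the longest annotated transcript (horizontal axis), 1 point per gene. Tgfbr1, at 41.0% GC, lay at -2.61 and Ltbp4, at 62.2% GC, at 1.01, with the other 8 genes between.

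Control replicate 2 departed from the other controls along GC content in these genes too. It lay below them for Tgfbr1, Tgfb2, Tgfbr3 and Tgfbr2, whose transcripts have 41.0% to 49.6% GC, and above them for the 6 genes with 52.5% to 62.2%. Lrrc32 and Ltbp3, at 58.3% each, were 1.44 and 1.53 times the mean of the other controls in that library, and Ltbp4 was 1.99 times that mean.

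The latent TGF-beta binding proteins tether the latent complex to fibrillin and fibronectin in the matrix. Ltbp4 was the most abundant of the 10 genes, with 9892 and 9546 normalised reads in Tbx1cko, and 14314, 25443 and 11217 in control replicates 1 to 3. The Tbx1cko libraries were close together and below the lowest control. The log2 difference was -0.72 (95% interval -1.64 to 0.20, limma adjusted p = 0.762). It was smaller under both checks, at -0.38 without control replicate 2 and -0.26 after GC correction.

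Ltbp3, whose protein is needed for bone and tooth growth and is paired mostly with TGF-beta1, had 801 and 973 normalised reads in Tbx1cko, and 1156, 1761 and 1139 in control replicates 1 to 3. Its log2 difference was -0.58 (95% interval -1.27 to 0.10, limma adjusted p = 0.762), which was -0.38 without control replicate 2 and -0.24 after GC correction. Ltbp1, on chromosome 17 from 75005568 to 75392512, plus strand, had 667 and 821 in Tbx1cko, and 947, 1291 and 999 in controls. The difference was -0.53 (95% interval -1.12 to 0.06, limma adjusted p = 0.762), with -0.39 without control replicate 2 and -0.38 after GC correction. All 3 binding protein genes were thus lower without overlap under each of these settings, by sizes that the intervals do not separate from 0. Mural cells and fibroblasts also make these matrix proteins. The mural markers were lower in Tbx1cko, as given above. The 10 fibroblast markers summed to 19827 and 40557 normalised reads in Tbx1cko replicates 1 and 2 and to between 21962 and 38549 in controls, with 6 of 10 lower. Without control replicate 2 these 6 stayed lower, and Col3a1, Dcn and Postn turned to log2 differences of -0.11, -0.17 and -0.40. Lum stayed above 0, at 0.11. The part of these markers in the values of the binding protein genes was not tested. Per exon length Ltbp4 made up 88.8% to 92.6% of the sum of the 3 in every library.

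Relative to the summed pan-endothelial markers of each library, Tgfb3, Ltbp1, Ltbp3 and Ltbp4 were again lower without overlap, 4 of the 9, where 5.97% of all genes were, and 0 of the 9 were higher without overlap, where 29.5% of all genes were. On that scale Tgfb2 overlapped. The ratios of the Tbx1cko to the control mean were 0.790 for Tgfb3, 0.829 for Ltbp1, 0.797 for Ltbp3 and 0.707 for Ltbp4, and 0.961 for Tgfb1.

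**Figure D3:**
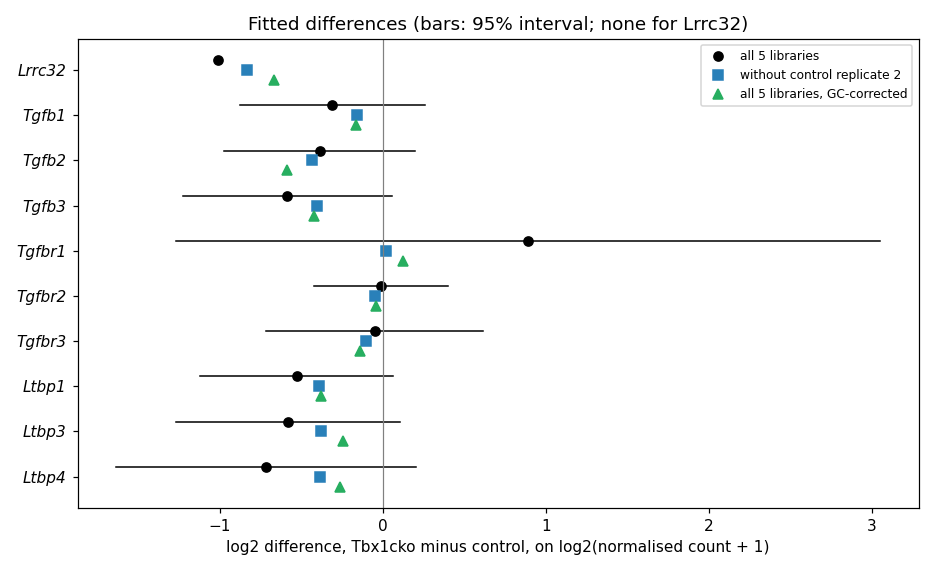
Log2 difference, Tbx1cko minus control, on log2(normalised count + 1), with all libraries (black, bars for the 95% interval, none for Lrrc32), without control replicate 2 (blue) and after GC correction (green). The binding proteins, Tgfb2 and Tgfb3 lay below 0 in all 3 fits with intervals that reach 0, and Tgfbr1 moved to 0.02 and 0.12.

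Promoter windows, 250 bases before to 50 after a transcription start, were listed for 7 of the 10 genes in RefSeq on GRCm38.p6, as 11 windows. Tgfb3, Tgfbr3 and Lrrc32 were not among them. Those of 2 binding protein genes lower without overlap, Ltbp3 and Ltbp4 (the most upstream of its 3 listed starts), are shown with that of Tgfbr2, the gene that varied least. Ltbp3 is read from chr19:5740650-5740949 on the plus strand, Ltbp4 from chr7:27337563-27337862 on the minus strand and Tgfbr2 from chr9:116175314-116175613 on the minus strand. Capitals mark the SMAD box, CAGAC, and the GC box, which reads GGGCGG, each searched on both strands.
Ltbp3: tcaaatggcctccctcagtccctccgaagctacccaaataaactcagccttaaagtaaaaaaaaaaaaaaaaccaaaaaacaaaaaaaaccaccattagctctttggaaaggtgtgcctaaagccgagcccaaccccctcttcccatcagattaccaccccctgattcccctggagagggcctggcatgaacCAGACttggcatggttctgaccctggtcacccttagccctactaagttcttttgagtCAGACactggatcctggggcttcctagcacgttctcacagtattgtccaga
Ltbp4: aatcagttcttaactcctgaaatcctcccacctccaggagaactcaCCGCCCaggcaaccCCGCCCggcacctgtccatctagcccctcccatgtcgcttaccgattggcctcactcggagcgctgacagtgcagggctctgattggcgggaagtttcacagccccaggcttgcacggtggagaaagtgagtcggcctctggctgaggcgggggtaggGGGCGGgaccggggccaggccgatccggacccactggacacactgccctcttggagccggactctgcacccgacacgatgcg
Tgfbr2: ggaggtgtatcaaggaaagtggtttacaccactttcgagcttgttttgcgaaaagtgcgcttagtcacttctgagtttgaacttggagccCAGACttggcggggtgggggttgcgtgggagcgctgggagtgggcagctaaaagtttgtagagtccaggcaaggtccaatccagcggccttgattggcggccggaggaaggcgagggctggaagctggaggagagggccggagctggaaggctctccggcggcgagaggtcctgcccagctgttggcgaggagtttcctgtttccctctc

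Ltbp3 had 2 SMAD boxes and no GC box, Ltbp4 had 3 GC boxes and no SMAD box, and Tgfbr2 had 1 SMAD box and no GC box. Of 32851 promoter windows of that length, 49.6% held a SMAD box and 35.7% a GC box on either strand. The T-box core GGTGTGA was in 0 of the 11 windows on either strand, where 3.98% of all windows held it. The longer T-box half-site AGGTGTGA, which contains that core, was also in 0 of the 11, beside 1.28% of all windows. GC content was 48.0% in the Ltbp3 window, 64.3% in that of Ltbp4 and 59.0% in that of Tgfbr2. A match or its absence describes only these letters in these windows.

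Levels of different genes were compared as normalised reads per kilobase of annotated exon, pooled over all transcripts of a gene. That length was 5042 bases for Tgfb1 and 9069 for Ltbp3, where the longest transcripts have 2573 and 5729. For Lrrc32 the lengths were 4688 and 4576. The order below and the shares per exon length above can therefore depend on this choice of length. In the controls the order of the means was Ltbp4 at 2629 ± 1158, Tgfb1 at 1243 ± 239, Lrrc32 at 1145 ± 267, Tgfbr2 at 867 ± 38.8, Tgfb3 at 249 ± 58.3, Tgfbr1 at 191 ± 128, Tgfbr3 at 188 ± 26.1, Ltbp3 at 149 ± 39.0, Ltbp1 at 101 ± 17.3 and Tgfb2 at 40.9 ± 4.31 (SD, n = 3). Among neighbours in this order, Tgfb1 and Lrrc32, Tgfb3 and Tgfbr1, and Tgfbr1 and Tgfbr3 differed by less than either SD of the pair. In Tbx1cko, Lrrc32 at 559 ± 2.24 was at rank 4, below Tgfbr2 at 860.0 ± 68.8 (SD, n = 2), where in controls it was at rank 3. Library by library, Lrrc32 was below Tgfbr2 per kilobase in both Tbx1cko libraries (560.3 and 557 for Lrrc32, 811 and 909 for Tgfbr2). It was above Tgfbr2 in control replicates 1 and 2 (1088 and 1435 for Lrrc32, 870.3 and 827 for Tgfbr2) and about level with it in control replicate 3 (911 for Lrrc32, 905 for Tgfbr2).

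**Figure D4:**
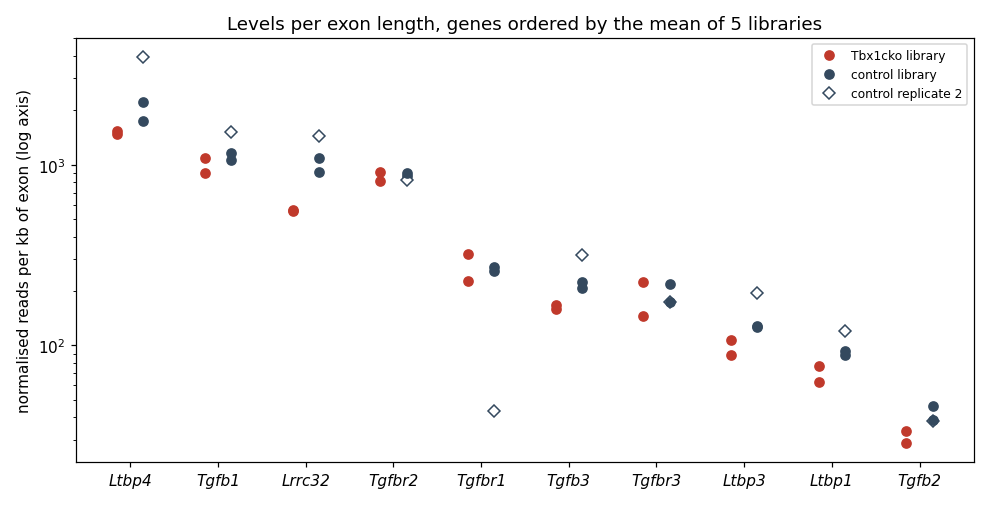
Normalised reads per kilobase of exon on a log axis, genes ordered by the mean of 5 libraries, 1 point per library with Tbx1cko left (red) and control right (dark, open diamond for control replicate 2). Ltbp4, Tgfb1, Lrrc32 and Tgfbr2 lay above 500 in all libraries, and the other 6 genes below 320.

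The genes whose pattern was most like that of Lrrc32 were ranked by the root mean square difference of centred log2 values over the 5 libraries, among 11188 genes with a mean of at least 50. The closest 6 were Lag3 at 0.02, Adamtsl1 at 0.07, and Smim1, Rnd1, Cacna1c and Rpl37rt at 0.09 each. Lag3, an inhibitory receptor gene of lymphocytes, had 89.6 and 90.7 normalised reads in Tbx1cko, and 179, 233 and 153 in control replicates 1 to 3. Rnd1, which encodes a small GTPase, had 2728 and 2930 in Tbx1cko and 5738, 7382 and 4071 in controls. The same order of libraries appears in both, with control replicate 2 highest and control replicate 3 the lowest control. Rpl37rt is annotated as a transcribed pseudogene, so its reads may belong to a near-identical copy. Of the other 9 genes, Tgfb3 was nearest to Lrrc32, at rank 135 with a distance of 0.21, then Ltbp4 at rank 182 and Ltbp3 at rank 254, and Tgfbr1 was farthest, at rank 10526. Since the ranking uses the values for which Lrrc32 was picked, it is a description of these libraries. It used all 5 libraries without GC correction, so the departure of control replicate 2 along GC content enters it. Transcript GC was 58.3% for Lrrc32, between 50.3% (Cacna1c) and 59.9% (Lag3) in the closest 6, and 41.0% for Tgfbr1. The part of GC content in the ranking was not tested.

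**Figure D5:**
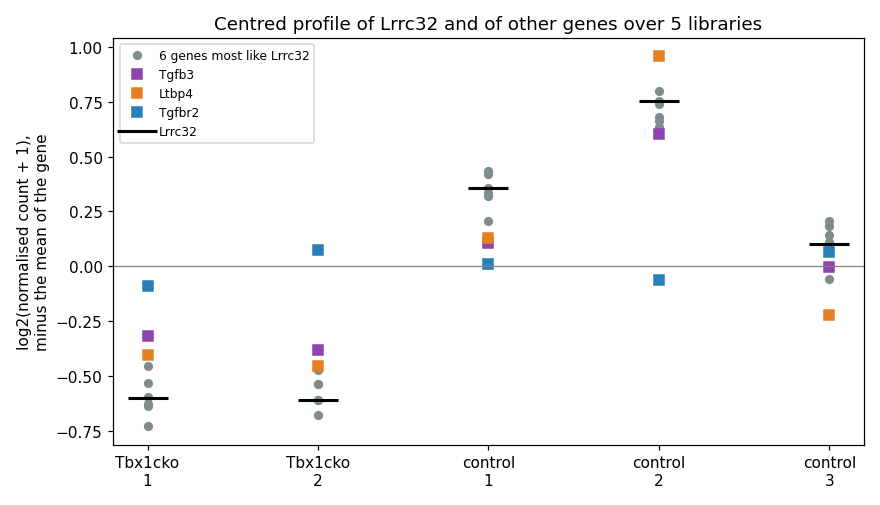
Log2(normalised count + 1) minus the mean of the gene (vertical axis) in each library, for Lrrc32 (black bar), the 6 genes most like it (grey), Tgfb3, Ltbp4 and Tgfbr2 (squares). Lrrc32, Tgfb3 and Ltbp4 lay below their mean in both Tbx1cko libraries and were highest in control replicate 2, and Tgfbr2 stayed near 0 throughout.

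The wider pathway was followed in 4 lists, in which 58 genes were tested, 6 of them in a pair of lists. Of the 58, 0 passed the limma threshold, 37 were lower and 21 higher in Tbx1cko, and the median log2 difference was -0.13. The groups did not overlap for 13 lower and 2 higher genes, beside 13.9% and 14.2% of all genes. Without control replicate 2 these counts were 18 and 2, beside 17.8% and 19.7%.

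Genes listed as holding or releasing latent TGF-beta, with Ltbp2 counted among them, were divided. Of 18 tested, 10 were lower and 8 higher, with a median of -0.03. That median was -0.11 without control replicate 2 and 0.06 after GC correction. Nrros, the counterpart of GARP on myeloid cells, had 1797 and 1776 normalised reads in Tbx1cko, and 1828, 2000 and 1637 in controls, with a log2 difference of -0.02 (95% interval -0.49 to 0.44, limma adjusted p = 0.964). Its Tbx1cko libraries lay inside the control range, unlike those of Lrrc32. Furin, the protease that cuts the TGF-beta propeptide, had 3653 and 3791 in Tbx1cko, and 4612, 6368 and 4053 in controls, lower without overlap at a difference of -0.40 (limma adjusted p = 0.762) that was -0.22 without control replicate 2. Emilin1, whose matrix protein restrains processing of the TGF-beta precursor, was lower without overlap at -0.34, with -0.17 without control replicate 2, and the sign turned after GC correction, at 0.085.

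The integrin chains that activate latent TGF-beta overlapped between the groups. Itgav, the alpha-v chain, had 1574 and 1728 normalised reads in Tbx1cko, and 1560.4, 694 and 2332 in controls, a log2 difference of 0.28. Leaving out control replicate 2 turned it to -0.21. Itgb8, the beta chain that pairs with it on GARP-bound complexes, was barely detected, at 11.0 and 18.3 normalised reads in Tbx1cko and 11.3, 14.7 and 16.9 in controls. Ltbp2, the family member that does not bind latent TGF-beta, had 220 and 334 in Tbx1cko and 475, 272 and 294 in controls. Mmp2 and Fn1, a matrix protease and fibronectin, had log2 differences of -0.42 and -0.25 with overlapping groups. That of Mmp2 was -0.14 without Tbx1cko replicate 1, -0.70 without Tbx1cko replicate 2 and -0.18 after GC correction. That of Fn1 was -0.16 without Tbx1cko replicate 2 and -0.066 after GC correction.

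SMADs and their regulators had 14 lower and 4 higher of 18 tested, with a median of -0.18, which was -0.12 both without control replicate 2 and after GC correction. Smad3, a signal transducer of the pathway, had 439.9 and 378 normalised reads in Tbx1cko, and 505, 562 and 608 in controls, lower without overlap at -0.45 (SE 0.21, limma adjusted p = 0.762). Its partner Smad2 was higher without overlap, with 706 and 746 in Tbx1cko, and 658, 349 and 701 in controls, a difference of 0.42 that was 0.10 without control replicate 2 and 0.03 after GC correction (44.9% GC). The inhibitory Smad7, itself induced by TGF-beta, had 907 and 1412 in Tbx1cko and 1536, 2356 and 1265 in controls.

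The endothelial co-receptor endoglin, Eng, had 27636 and 23011 normalised reads in Tbx1cko, and 31270.0, 60809.9 and 28809 in controls, lower without overlap at -0.59 (limma adjusted p = 0.762). The difference was -0.25 without control replicate 2, whose value was about 2.02 times the mean of the other controls. Acvrl1, the endothelial type I receptor ALK1, overlapped, with 3826 and 3417 in Tbx1cko, and 4134, 7266 and 3675 in controls. Tgif2, a SMAD corepressor gene, was lower without overlap, with 28.4 and 18.3 in Tbx1cko and 37.3, 46.0 and 38.6 in controls.

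Genes commonly used as TGF-beta targets had 13 lower and 5 higher of 18 tested, with a median of -0.14. It was -0.17 without control replicate 2, and 0.0023 after GC correction of the 16 with a GC value. Acta2 and Tagln, smooth muscle genes that also belong to the mural marker list above, were lower without overlap at -0.86 and -0.69 (limma adjusted p = 0.762 each). Acta2 was the 1 gene of the 58 that DESeq2 called without control replicate 2 (log2 difference -0.60, adjusted p = 0.0295). In that fit 0.888% of genes were called, and 0 of the 9 pathway genes beside Lrrc32 were. It also called the mural markers Notch3 (DESeq2 adjusted p = 8.1e-05), Pdgfrb (0.0025), Vtn (0.0025), Abcc9 (0.0077) and Cspg4 (0.028), all lower. Rgs5, Kcnj8, Des, Mcam, Myh11 and Tagln of that list were not called, and Cnn1 had no adjusted p. Calls in that fit were not limited to mural markers. The platelet marker Pf4 was called as higher, at 0.93 (DESeq2 adjusted p = 0.0057), and Ppbp was not called. The lymphatic marker Prox1 was called as lower, at -0.83 (DESeq2 adjusted p = 0.033), and Lyve1, Pdpn and Flt4 were not called. The part of mural cells in the call of Acta2 was not tested. The matricellular gene Cyr61 was lower without overlap at -0.62, and at -0.38 without control replicate 2, where Tagln was -0.45. Tgfbi, the TGF-beta-induced matrix protein, was higher without overlap, with 5162 and 4213 in Tbx1cko, and 3746, 3678 and 3890 in controls, a difference of 0.31 (0.16 without Tbx1cko replicate 1).

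Genes listed for extracellular proteins that bind or hold back TGF-beta or related ligands were 5 lower and 5 higher of 10 tested. Their median was -0.09, with -0.17 without control replicate 2 and -0.04 after GC correction. Without that library Dcn, Aspn and Fstl1 turned to -0.17, -0.13 and -0.06, while Lum and Lefty1 stayed above 0. Bgn, or biglycan, was lower without overlap, with 8472 and 8724 normalised reads in Tbx1cko, and 12415, 9999 and 10862 in controls, at -0.36 (limma adjusted p = 0.762), and without control replicate 2 at -0.43. Fmod overlapped at -0.61, with -0.19 without Tbx1cko replicate 1 and -1.03 without Tbx1cko replicate 2. Htra1 overlapped at -0.34, with -0.16 without control replicate 2, -0.22 without Tbx1cko replicate 2 and -0.066 after GC correction. Lum, the proteoglycan lumican, had 305 and 627 in Tbx1cko and 478, 35.9 and 341 in controls, and its difference of 1.27 was 0.11 without control replicate 2.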

How the data were processed

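RNA of CD31-positive heart cells was measured in 2 Tbx1cko and 3 control libraries, grouped by sample title. TRIzol LS and an Illumina TruSeq kit were used, per the labels' protocols. The submitters' processing notes name STAR 2.5.2b, R 3.5.1, DESeq, DESeq2 1.20.0 and the build GRCm38 (mm10). No source used here gives the counter, annotation or strand setting, so overlapping and antisense genes cannot be separated.

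The deposited signal is a gene's read count over the size factor of each library, as found from the values: 100% were whole multiples of the library's smallest value, within 0.01, so whole reads were recovered. The 2-sided limma test (3.58.1, R 4.3.3) used log2(normalised count + 1), which understates changes of low genes, a genotype term, a trended prior and Benjamini-Hochberg adjustment over the 14339 genes with a mean of at least 10. edgeR 4.0.16, DESeq2 1.42.0 and voom on the recovered reads were alternatives, with other pseudocounts (0.5, 5), filters (none, 50), TMM and quantile scaling, no trend, a replicate block, left-out libraries and a GC correction (loess, span 0.3, GC of the longest GENCODE M21 transcript, for 95.9% of tested genes). Exon length and positions came from the same annotation, which matched 16740 of 17638 symbols. The fits were tested on simulated data. No pair of libraries agreed within sampling noise (chi-square per degree of freedom 11.0 or more).

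The members and lists were chosen with earlier results of these data known. Genes named by rule are the 10 members, Tbx1, fixed pathway genes, up to 4 of each list with the smallest unadjusted p, and the 6 genes most like Lrrc32. Some cell type markers, and Dcn, Aspn, Fstl1 and Lefty1 of the lists, are named outside that rule. A gene of the target list is counted but not reported by name here. Ratios to endothelial markers and the counts of groups without overlap under other settings were added after the data were seen.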

Additional observations from a re-analysis of the deposited data

How the results depend on the processing

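The log2 difference of Lrrc32 was below 0 in all 20 alternatives, between -1.16 and -0.66. Lrrc32 was picked for low Tbx1cko values in these same libraries, so its kept sign describes them and gives no separate support. Its size moved past the spread between libraries after GC correction, at -0.66, and with GC correction without control replicate 2, at -0.71. Tgfb1, Tgfb2, Tgfb3, Ltbp1, Ltbp3 and Ltbp4 were lower in all 20, and the lowest adjusted p of the 9 genes beside Lrrc32 was 0.291, for Ltbp4 in DESeq2 without control replicate 2. The count of these 9 that were lower without overlap was 5 under each scaling, pseudocount and filter and 5 to 7 with 1 library left out. Over all genes tested, that count was 1991 of 14339 in the main fit, 2108 with TMM and 2176 with quantile scaling. With 1 library left out it was 2554 to 3623 of 14339, so groups without overlap were more frequent among all genes too. The count of genes called was 0 in most fits, 0 to 3 in limma with 1 library left out (3 without control replicate 2), 4 in DESeq2, and without control replicate 2 it was 1 in edgeR and 78 in DESeq2, 32 higher and 46 lower. The cause of these changes was not tested. With the replicate number as a block, 3 genes were called, and control replicate 3, alone in its block, no longer counts. Deviations of same-numbered libraries from their group means correlated across genes at -0.06 and -0.05, and the labels give no shared animal or batch, so the numbers were not treated as pairs. The block left 0 of the 9 genes called.

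Signs turned for these genes. Tgfbr1 was -0.080 with GC correction without control replicate 2. Tgfbr2 was 0.076 with quantile scaling, 0.017 with the replicate block, and -0.095 to 0.068 with 1 library left out, and Tgfbr3 was -0.36 to 0.26. After GC correction Emilin1 was 0.085, Itgav -0.23, Itgb8 -0.82, Ltbp2 0.037 and Nrros 0.16, and with the correction but without control replicate 2 Emilin1 was 0.0063, Itgav -0.30, Itgb8 -0.068 and Nrros 0.096. With 1 library left out Itgav was -0.21 to 0.66, Itgb8 -0.34 to 0.35 and Nrros -0.098 to 0.046. Without control replicate 2, Itgav was -0.25 in edgeR and -0.25 in DESeq2, and Nrros 0.030 in edgeR and 0.032 in DESeq2. Itgb8, which rests on 10 to 18 reads per library, was -0.0042 with TMM, -0.14 with quantile scaling and -0.027 in voom. The median of the genes listed as holding or releasing the ligand was 0.061 after GC correction and -0.19 without Tbx1cko replicate 2. That of the targets was -0.27 without Tbx1cko replicate 2, and that of the extracellular binders and inhibitors 0.20 without Tbx1cko replicate 1. Intervals and p-values rest on 5 libraries, and depth limits only the scarce genes.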
